A study of Mus musculus with 6 samples.

Results

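A set of 41 genes that cells use to copy their DNA and to divide was followed in mouse bone marrow, 22 of S phase (the period of DNA replication) and 19 of G2 and M phase (preparation for mitosis, and mitosis itself). They are common marker genes of these phases, picked by symbol, with earlier results of these data known. These are 41 of the 56496 genes in the deposited expression table. Their values were made by summing TPM (an abundance corrected for transcript length and scaled to the same total in each library) over the transcripts of a gene. All 41 averaged 1 TPM or more across the libraries, the level required of every gene tested.

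The study asked how Onway, an agent given by gavage, affects gene expression in the marrow of mice that had been operated on for cancer. RNA-seq was made from marrow cells of female BALB/c mice that had carried 4T1 tumours, grown from a mammary carcinoma line of the mouse, and had them resected. The Onway group had 3 libraries (Onway 1, Onway 2 and Onway 3) from mice gavaged for 2 weeks, labelled day 14, and the Control group had 3 (Control 4, Control 5 and Control 6) from mice not given Onway, labelled day 0. Both groups share the genotype label WT, the tumour and the surgery, so neither is unoperated marrow. Treatment cannot be told apart from the labelled day. Nothing in the labels gives the composition of Onway, the age of the mice, a vehicle gavage for Control, or whether libraries stand for single mice, and p-values therefore reflect only how much these libraries vary. Their extraction text also lists a culture in dexamethasone, isobutylmethylxanthine and insulin, and whether it applies to these libraries is not given.

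Replication begins when the Mcm helicase is loaded onto DNA in G1 and is activated on entry into S phase, under the control of E2F transcription factors and of cyclin E with its kinase. Mitotic genes are transcribed later, and their products condense chromosomes, build the spindle and trigger anaphase, after which many are degraded by the anaphase-promoting complex. In bone marrow the cells that divide are mostly erythroid precursors, early granulocyte precursors and early B-lineage cells, while mature neutrophils do not divide and red cells have lost the nucleus.

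In all 41 members the values of the 2 groups overlapped, and no difference between them passed the test. Tested with limma, a linear model with pooled variances, on log2(TPM + 1) and with Benjamini-Hochberg adjustment over 14192 genes, 0 of 41 members were higher and 0 were lower in Onway at an adjusted p under 0.05, where 0.233% of all tested genes were higher and 2.99% were lower. None of the 41 reached an unadjusted p of 0.05, which 1897 tested genes did, and the lowest adjusted p was 0.62, for Gins2. In none of the 41 were all 3 Onway libraries above all 3 Control libraries, a pattern found in 6.95% of tested genes, or all below them, found in 11.5%. The median log2 fold change (Onway over Control) was 0.04 for the S-phase genes and -0.02 for the G2/M genes, beside 0.03 for all tested genes, and single members lay between -0.21 for Ccnb1 and 0.29 for Cenpf. The sum of the 22 S-phase genes was 1922 TPM in Onway 1, 1790 in Onway 2 and 1903 in Onway 3, against 2428 TPM in Control 4, 1546 in Control 5 and 1586 in Control 6. The 19 G2/M genes summed to 2001, 1903 and 1841 TPM in the Onway libraries in the same order, against 2319, 1710 and 1806 TPM in the Control libraries. In both sums the 3 Onway libraries lay between Control 4, the highest of the 6, and Control 5 and Control 6, the lowest. The S-phase sum averaged 1872 ± 71.0 TPM in Onway and 1854 ± 498 TPM in Control, and the G2/M sum 1915 ± 80.5 TPM in Onway and 1945 ± 327 TPM in Control (SD, n = 3 each).

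The members of each phase are known for different promoter elements, and the promoter windows of 6 are shown. Whether such elements go with a gene's values in any library was not tested. RefSeq windows on the mouse assembly GRCm38.p6, running from 250 bases before the transcription start to 50 after it, were found for 35 of the 41 members (38 windows). Gins2, Tpx2, Ccna2, Aurkb, Mcm4 and Ccne2 had none in the table used. E2F elements were searched as TTTCCCGC, TTTGGCGC, TTTCGCGC and TTTGCCGC, the cell cycle genes homology region (CHR) of mitotic genes as TTTGAA and TTCGAA, and the CCAAT box as CCAAT, each on both strands and with overlapping matches kept. The panel genes with the most matches over the whole window in each phase are printed. Pcna and Rrm2 tied at 1 match, and Pcna was taken by alphabetical order. The letters shown are the 250 bases before the start, 5′ to 3′ along the gene, with every match in capitals. The windows are chr8:75109259-75109508 on the plus strand for Mcm5, chr6:88898781-88899030 on the minus strand for Mcm2, chr2:132253181-132253430 on the minus strand for Pcna, chr11:99024190-99024439 on the minus strand for Top2a, chr2:164769679-164769928 on the plus strand for Ube2c and chr10:69352913-69353162 on the minus strand for Cdk1.
Mcm5: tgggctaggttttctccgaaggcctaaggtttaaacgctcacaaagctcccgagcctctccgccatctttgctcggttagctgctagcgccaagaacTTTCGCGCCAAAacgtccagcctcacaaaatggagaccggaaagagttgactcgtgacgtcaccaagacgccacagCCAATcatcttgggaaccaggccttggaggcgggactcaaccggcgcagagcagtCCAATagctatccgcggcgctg
Mcm2: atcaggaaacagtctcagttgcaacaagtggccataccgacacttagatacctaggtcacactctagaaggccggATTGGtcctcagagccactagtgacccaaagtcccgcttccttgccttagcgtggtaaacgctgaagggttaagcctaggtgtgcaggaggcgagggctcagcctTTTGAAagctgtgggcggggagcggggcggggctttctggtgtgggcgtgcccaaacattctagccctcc
Pcna: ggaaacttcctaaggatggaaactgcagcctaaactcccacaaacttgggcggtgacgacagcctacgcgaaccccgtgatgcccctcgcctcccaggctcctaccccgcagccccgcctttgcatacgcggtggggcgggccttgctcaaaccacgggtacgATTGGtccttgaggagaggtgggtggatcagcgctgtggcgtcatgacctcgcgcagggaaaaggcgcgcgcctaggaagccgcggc
Top2a: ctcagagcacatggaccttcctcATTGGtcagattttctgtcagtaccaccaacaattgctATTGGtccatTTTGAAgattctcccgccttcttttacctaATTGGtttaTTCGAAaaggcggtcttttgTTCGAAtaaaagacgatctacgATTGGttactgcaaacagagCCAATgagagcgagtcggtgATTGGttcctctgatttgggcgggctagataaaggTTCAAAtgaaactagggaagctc
Ube2c: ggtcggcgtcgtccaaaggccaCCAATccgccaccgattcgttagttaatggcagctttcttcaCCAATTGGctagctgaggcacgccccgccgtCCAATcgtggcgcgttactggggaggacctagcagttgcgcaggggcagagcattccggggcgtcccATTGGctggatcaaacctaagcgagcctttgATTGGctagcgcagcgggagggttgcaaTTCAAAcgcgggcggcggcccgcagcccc
Cdk1: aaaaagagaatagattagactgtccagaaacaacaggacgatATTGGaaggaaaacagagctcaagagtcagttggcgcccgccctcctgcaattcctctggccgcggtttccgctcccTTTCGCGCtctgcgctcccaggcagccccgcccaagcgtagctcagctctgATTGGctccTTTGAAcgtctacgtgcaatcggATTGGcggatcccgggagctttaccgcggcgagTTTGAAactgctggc

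An E2F element was present in 31.8% of the 22 S-phase windows and 6.25% of the 16 G2/M windows, against 2.26% of all 32851 mouse windows of this length. CHR elements were found in 22.7% of S-phase and 75.0% of G2/M windows, against 19.2% of all windows, and CCAAT boxes in 63.6% and 87.5%, against 37.4%. A CHR element together with a CCAAT box was found in 18.2% of S-phase and 75.0% of G2/M windows, against 7.52% of all windows. Among the printed promoters, that of Mcm5 held 2 overlapping E2F matches, those of Mcm2 and Pcna none, and that of Top2a held 4 CHR matches and 6 CCAAT boxes. The Cdk1 window carried both kinds, 1 E2F match 131 bases before the start and CHR matches 71 and 15 bases before it. In the Ube2c window a pair of CCAAT boxes on opposite strands overlapped. These matches describe letters in the sequence and not factor binding.

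**Figure D1:**
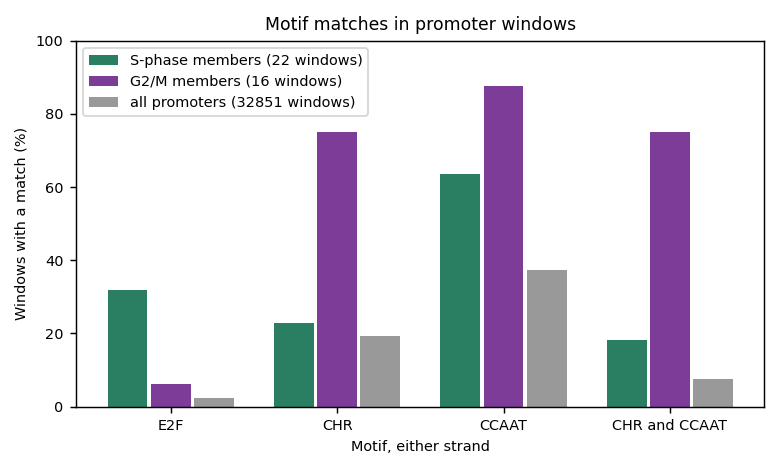
Share of promoter windows (in %, y axis) with at least 1 match to the E2F, CHR and CCAAT letters, or to both CHR and CCAAT (x axis), for S-phase members (green), G2/M members (purple) and all mouse windows (grey). CHR matches were in 75.0% of G2/M windows and 22.7% of S-phase windows, and E2F matches in 6.25% and 31.8%.

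Helicase loading and activation was represented by 10 genes, and in 8 of them Control 4 was the highest of the 6 libraries. Their sum was 753, 710 and 741 TPM in the Onway libraries, against 928, 608 and 652 TPM in the Control libraries. Mcm2, a subunit of the helicase ring, had 77.7, 68.6 and 76.1 TPM in Onway, against 100.2, 56.0 and 65.3 TPM in Control, and Mcm5, another subunit, had 124, 111 and 115 TPM in Onway, against 135, 100.4 and 107 TPM in Control. For both, each Onway library was above Control 5 and Control 6 and below Control 4, and the log2 fold changes were 0.05 ± 0.23 and 0.04 ± 0.18 (SE). Mcm4 had 59.3, 57.5 and 54.6 TPM in Onway, against 78.0, 50.5 and 53.3 TPM in Control. Cdc6, which helps to load the ring at origins, had 23.8, 23.9 and 27.1 TPM in Onway, against 38.8, 23.1 and 20.8 TPM in Control. In Cdc6 and Mcm4 the other 5 libraries lay close together below Control 4, and the log2 fold changes were -0.09 ± 0.24 and -0.06 ± 0.20 (SE).

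The 2 partners that turn the loaded ring into a moving helicase had another order of libraries. Cdc45 had 43.9, 37.8 and 35.2 TPM in Onway, against 36.9, 33.2 and 34.3 TPM in Control, and its highest library was Onway 1. Gins2 had 18.9, 20.3 and 22.3 TPM in Onway, against 20.6, 14.4 and 16.6 TPM in Control, and its highest was Onway 3. The groups overlapped in both, with log2 fold changes of 0.16 ± 0.16 for Cdc45 and 0.25 ± 0.18 for Gins2 (SE), and the 95% interval for Gins2 ran from -0.17 to 0.67. Mcm3, Mcm6, Mcm7 and Cdt1, the licensing factor, had log2 fold changes between -0.01 and 0.04.

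**Figure D2:**
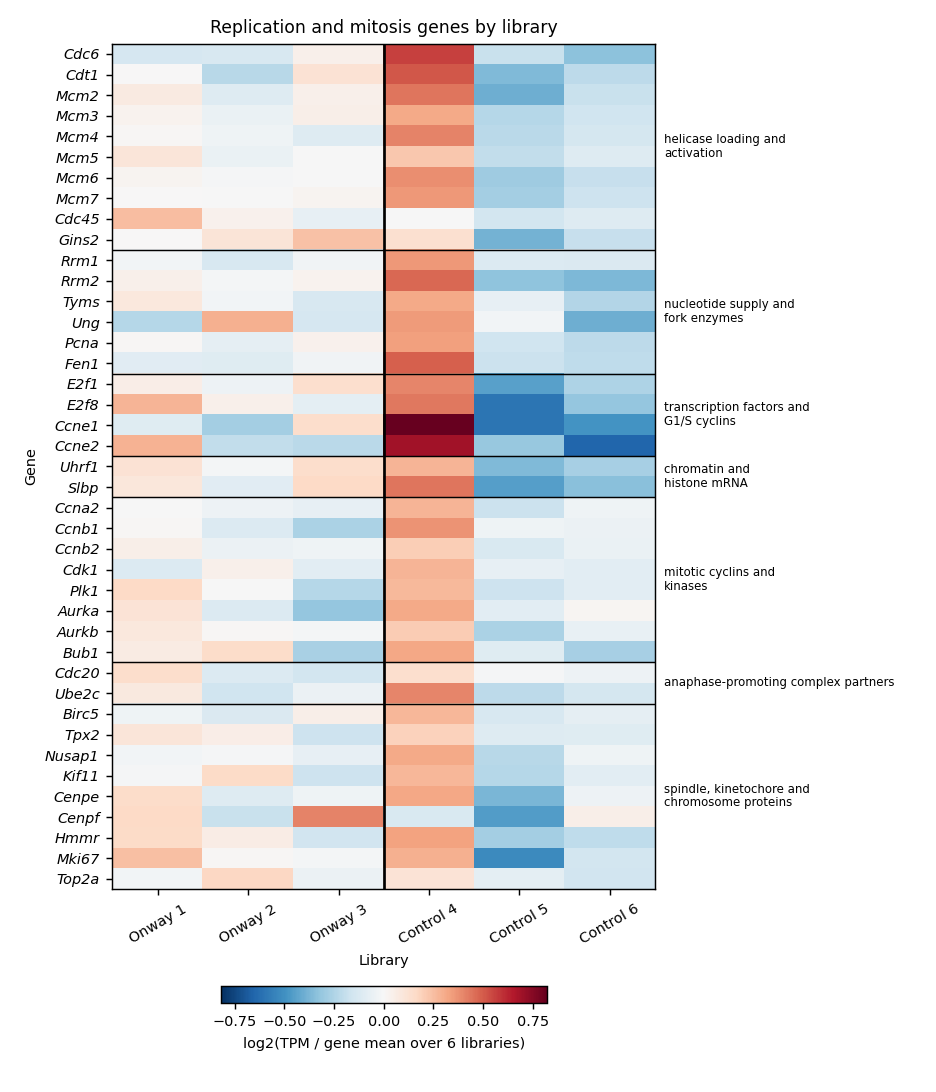
Heat map of the 41 genes (rows, grouped by role) in the 3 Onway libraries (left) and the 3 Control libraries (right), as log2 of TPM over the gene's mean across the 6 libraries. Control 4 was the highest library for 36 of the 41 genes, and Control 5 or Control 6 was the lowest Control library for all 41. These counts were not made over all tested genes.

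Nucleotide supply and fork enzymes counted 6 genes, among them Pcna, the sliding clamp of DNA polymerases and the most abundant member. Pcna had 340.5, 322 and 347 TPM in Onway, against 427, 302 and 292 TPM in Control, and its log2 fold change was 0.01 with a 95% interval of -0.45 to 0.46. Rrm2, the regulated subunit of ribonucleotide reductase, had 180.3, 173 and 178 TPM in Onway, against 243, 139 and 136 TPM in Control. Each Onway value of both genes lay above Control 5 and Control 6 and below Control 4. Rrm1, the large subunit of the same enzyme, had 97.2, 90.0 and 97.0 TPM in Onway, against 126, 91.2 and 91.1 TPM in Control. Fen1, which trims Okazaki fragments, had 56.8, 56.7 and 59.4 TPM in Onway, against 85.1, 53.6 and 52.6 TPM in Control. In Rrm1 and Fen1 only Control 4 stood away from the other 5 libraries, and the log2 fold changes were -0.10 ± 0.19 and -0.11 ± 0.22 (SE). Tyms, thymidylate synthase, and Ung, which removes uracil from DNA, had log2 fold changes of -0.02 and 0.00, and Ung was the least abundant member at 8.07 ± 1.64 TPM in Onway and 8.16 ± 2.10 TPM in Control (SD, n = 3 each).

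The transcription factors and G1/S cyclins spread the most among libraries. Ccne1, a cyclin E that starts S phase with its kinase, had 33.8, 29.9 and 39.9 TPM in Onway, against 63.9, 23.9 and 25.8 TPM in Control. Ccne2, the other cyclin E, had 30.1, 21.5 and 21.2 TPM in Onway, against 39.9, 19.9 and 15.8 TPM in Control. Control 4 was 2.57 times the mean of Control 5 and Control 6 for Ccne1 and 2.23 times for Ccne2, the largest such ratios among the 41. Their log2 fold changes were 0.01 ± 0.37 and 0.04 ± 0.34 (SE), and the interval for Ccne1, -0.88 to 0.89, was the widest. E2f1, an activator of replication genes, had 15.7, 14.7 and 16.6 TPM in Onway, against 19.9, 11.1 and 12.7 TPM in Control. E2f8, a repressor among the E2F proteins, had 59.4, 50.2 and 46.2 TPM in Onway, against 65.9, 32.3 and 39.2 TPM in Control. All Onway values of E2f1 and E2f8 were above Control 5 and Control 6, and Control 4 exceeded them all. The log2 fold change was 0.14 ± 0.23 for E2f1 and 0.24 ± 0.27 for E2f8 (SE).

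Uhrf1, which carries DNA methylation over to new strands, had 104, 94.2 and 106 TPM in Onway, against 115, 74.3 and 78.9 TPM in Control. Its log2 fold change was 0.20 ± 0.21, and that of Slbp, which binds the stem-loop of replication-dependent histone mRNA, was 0.17 ± 0.26 (SE). Slbp averaged 170.1 ± 15.3 TPM in Onway and 157 ± 56.4 TPM in Control (SD, n = 3 each), and both genes showed the same order of Onway libraries between Control 4 and the other Control libraries.

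**Figure D3:**
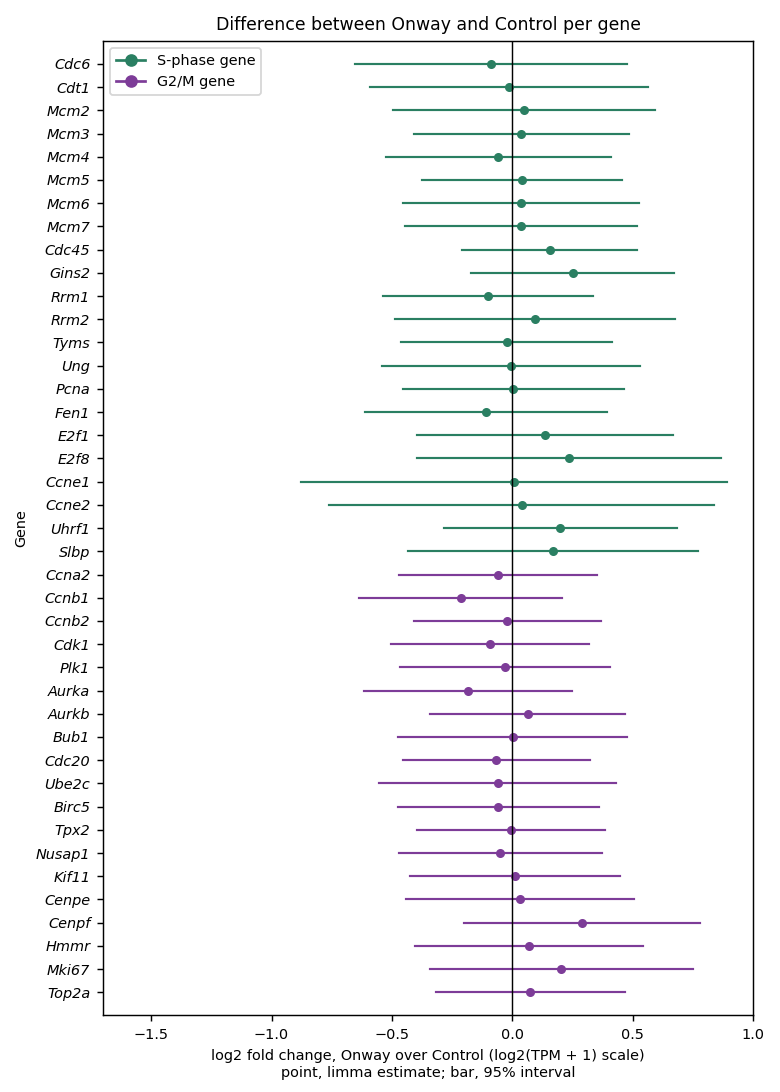
Log2 fold change (Onway over Control, x axis) of the 41 genes (y axis, by role) with limma's 95% interval, S-phase genes in green and G2/M genes in purple. Every interval includes 0, and the estimates lie between -0.21 for Ccnb1 and 0.29 for Cenpf.

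The 8 mitotic cyclins and kinases lay closer together. Ccnb1, cyclin B1, had 71.9, 66.1 and 59.7 TPM in Onway, against 92.2, 69.8 and 69.2 TPM in Control. Cdk1, the kinase that it activates, had 196, 218 and 199.8 TPM in Onway, against 257, 203 and 199.6 TPM in Control. Control 4 was the highest library for both, and the other 5 overlapped, with log2 fold changes of -0.21 ± 0.18 and -0.09 ± 0.18 (SE). Aurka, a kinase of the spindle poles, had 49.1, 41.9 and 36.4 TPM in Onway, against 56.3, 42.7 and 45.9 TPM in Control. Aurkb, its relative in the chromosomal passenger complex, had 79.7, 75.7 and 74.2 TPM in Onway, against 86.7, 62.6 and 71.9 TPM in Control. Onway 3 was the lowest library for Ccnb1 and Aurka, while for Aurkb all 3 Onway libraries were above Control 5 and Control 6. Ccna2 and Ccnb2, the further mitotic cyclins, the kinase Plk1 and the checkpoint kinase Bub1 had log2 fold changes between -0.06 and 0.00.

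Cdc20 and Ube2c work with the anaphase-promoting complex, Cdc20 as its activator and Ube2c as its ubiquitin-conjugating enzyme. Cdc20 had 117, 97.7 and 95.1 TPM in Onway, against 116, 105 and 102 TPM in Control, and its libraries differed the least among the 41, by 1.23 times between highest and lowest. Ube2c, the most abundant G2/M member, had 285, 241 and 261 TPM in Onway, against 356, 233 and 245 TPM in Control. Their log2 fold changes were -0.07 ± 0.17 and -0.06 ± 0.21 (SE), and in both the groups overlapped.

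Of the 9 spindle, kinetochore and chromosome proteins, Mki67, the coat protein of mitotic chromosomes used as a proliferation marker, had 241, 205 and 201 TPM in Onway, against 249, 142 and 183 TPM in Control. Top2a, which untangles sister DNA, had 213, 243 and 209.7 TPM in Onway, against 234, 205 and 194 TPM in Control. All Onway values of both were above Control 5 and Control 6, and for Top2a the highest library was Onway 2. Cenpf, a kinetochore protein, had 18.7, 14.7 and 22.1 TPM in Onway, against 15.3, 12.1 and 17.2 TPM in Control. It was the only member whose highest Control library was not Control 4, its highest library was Onway 3, and its 95% interval ran from -0.20 to 0.78. The log2 fold changes of Mki67 and Top2a were 0.20 ± 0.24 and 0.08 ± 0.17 (SE). The others were Birc5, a passenger complex subunit, Tpx2 and Nusap1, which bind spindle microtubules, the motors Kif11 and Cenpe, and Hmmr, a spindle-associated protein, with log2 fold changes between -0.06 and 0.07.

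Control 4 set most of the spread. It was the highest of the 6 libraries in 36 of 41 members, 20 of 22 in S phase and 16 of 19 in G2/M, and exceeded the mean of Control 5 and Control 6 by a median of 1.52 times in S phase and 1.30 times in G2/M. The median coefficient of variation among libraries was 8.26% in Onway and 21.6% in Control, and it was larger in Control for 37 of 41 genes. How often Control 4 was highest, or Control varied more, among all tested genes was not counted. Whether these traits are particular to the members is thus not known. All 3 Onway libraries were above both Control 5 and Control 6 in 18 of 22 S-phase genes and 5 of 19 G2/M genes, a comparison chosen after the values were seen, where 16.9% of all tested genes showed this. Without Control 4, 38 of the 41 log2 fold changes were positive, with medians of 0.24 in S phase and 0.10 in G2/M, beside 0.05 for all tested genes, none was called, and the lowest adjusted p by limma was 0.33, for E2f8. Without both Control 4 and Onway 3, the libraries with the most haemoglobin, 40 of 41 were positive with medians of 0.23 and 0.17, and E2f8, Rrm2, Slbp and Uhrf1 had an unadjusted p under 0.05 with a lowest adjusted p of 0.16. In that setting all 14128 tested genes had a median of 0.14, 9174 of them were positive and 2855 had an unadjusted p under 0.05, a larger share than among the members. The authors' deposited table also holds group means, each of 4 values, and 4 times a mean leaves a further value beyond the 3 libraries. In the authors' deposited table this further value came to 2018 TPM for Onway and 2417 TPM for Control in the S-phase sum, and to 2031 TPM and 2617 TPM in the G2/M sum. The further Control value thus lay near or above Control 4 and well above Control 5 and Control 6, and it was above the further Onway value in 38 of 41 genes. This count, too, was not made over all tested genes.

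The S-phase sum divided by the G2/M sum was 0.961, 0.941 and 1.03 in Onway, against 1.05, 0.905 and 0.878 in Control. Control 4 and Onway 3 had the largest ratios, and Control 5 and Control 6 the smallest, so the groups overlapped.

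The labelled tissue was checked against marker genes. Haemoglobin genes made up 13.4%, 9.38% and 33.9% of TPM in the Onway libraries, against 26.6%, 11.6% and 18.3% in the Control libraries. A list of 12 mature neutrophil genes made up 8.84% to 16.5% in Onway and 8.02% to 18.3% in Control. RNA of red-cell and neutrophil genes was thus present in all 6. Sums of 12 genes each for megakaryocytes, skeletal muscle and bone and stroma averaged 129.7, 21.3 and 57.5 TPM in Onway, against 2163, 2574 and 1559 TPM in Control, and 12, 11 and 11 of them were lower in Onway at an adjusted p under 0.05 by limma. In the authors' deposited table the further values of these sums were 1192, 21.1 and 98.3 TPM for Onway and 1003, 22.2 and 100.6 TPM for Control, so they did not show the difference seen in the 3 libraries a group. The part of these markers in the members' values was not tested. Epithelial genes, which 4T1 cells would bring, summed to between 4.08 and 7.80 TPM in Onway and between 5.78 and 8.47 TPM in Control, over 10 genes, with Krt14 and Krt5 at 0 in every library but Control 4.

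Of the marker sums of dividing lineages, that of erythroid genes had the same highest and lowest library as the S-phase and G2/M sums. Those of early granulocyte and early B-lineage genes did not. Within Onway the erythroid and G2/M sums went apart, as Onway 3 had the highest erythroid and the lowest G2/M sum. In total, 23 erythroid genes other than haemoglobin, among them Klf1 and Alas2, gave 3393, 2564 and 4678 TPM in Onway, against 6142, 1855 and 3128 TPM in Control. Early granulocyte genes (10 genes, among them Mpo and Elane of the primary granules) summed to 4835, 4313 and 2333 TPM in Onway, against 4539, 8871 and 6752 TPM in Control. They include Nkg7, also a marker of T and NK cells, at 51.7 to 79.8 TPM in Onway and 103.7 to 187.5 TPM in Control. Markers of pro-B and pre-B cells (14 genes) summed to 361, 945 and 972 TPM in Onway, against 351, 457 and 268 TPM in Control. Of these 14, 13 had a positive log2 fold change and 0 were called by limma, with a lowest adjusted p of 0.17 and 4 unadjusted p under 0.05, and their part in the members' values was not tested. Control 4 thus had the highest erythroid and replication sums, and Control 5 the lowest of both with the highest early granulocyte sum. In the authors' deposited table the further value of the erythroid sum was 3867 TPM for Onway and 6131 TPM for Control. In bulk RNA, fewer cells of a type and less RNA per cell cannot be told apart.

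**Figure D4:**
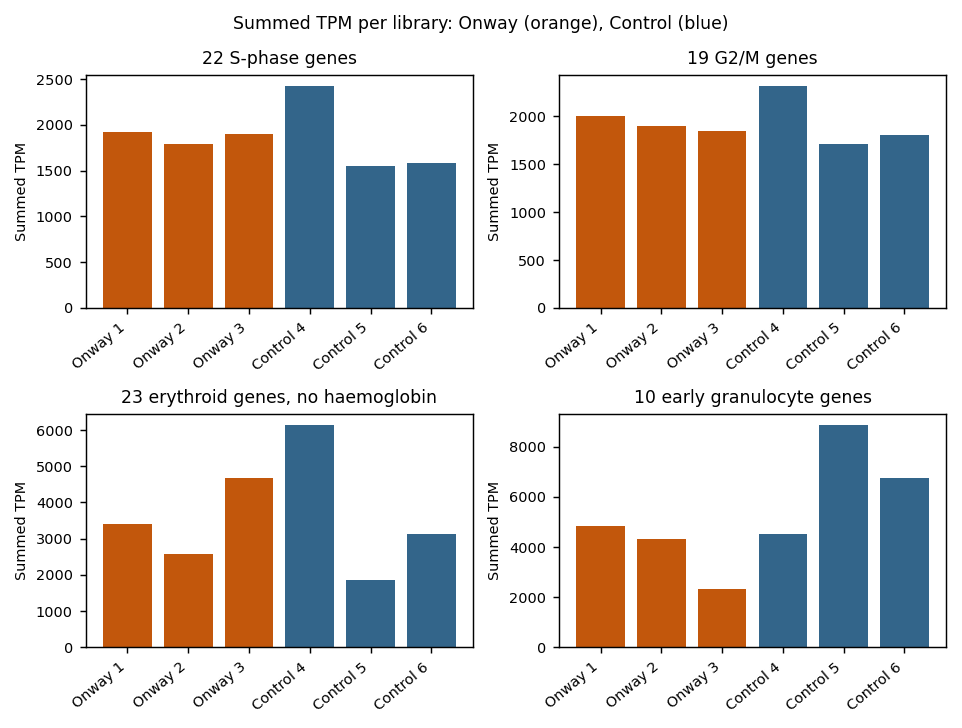
Summed TPM (y axis) of the S-phase genes, the G2/M genes, the erythroid genes without haemoglobin and the early granulocyte genes in each library (x axis), Onway in orange and Control in blue. Control 4 is the highest library in the first 3 panels, at 2428, 2319 and 6142 TPM, and Control 5 is the highest in the early granulocyte panel, at 8871 TPM.

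Each gene's slope on these contents was fitted by limma with the group as a further term, as the log2(TPM + 1) difference per doubling of the content, an analysis chosen after the data were seen. On erythroid content 41 of 41 members had a positive slope, while 42.4% of all tested genes had one, and the median slope was 0.32 in S phase and 0.16 in G2/M. No member passed an adjusted p of 0.05, at which 0.705% of all genes had a positive and 0.19% a negative slope, and 10 members had an unadjusted p under 0.05. Ccne1 had the steepest slope, 0.75 ± 0.18 (SE, adjusted p by limma 0.099), followed by Cdt1 at 0.48 ± 0.14, Slbp at 0.48 ± 0.15, Ccne2 at 0.47 ± 0.25 and E2f8 at 0.44 ± 0.18, and the shallowest were Cdc45 at 0.04 ± 0.15 and Top2a at 0.05 ± 0.14. With TPM rescaled after leaving out the haemoglobin genes, 12 of 41 members passed with positive slopes and none with a negative one, where 3.22% of all genes passed with a positive and 0.332% with a negative slope. In that scaling all genes moved too, with a median slope of 0.13, beside 0.40 for the members.

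In TPM as deposited, the positive slopes depended on Control 4. Without it 26 of 41 were positive, with medians of 0.07 in S phase and -0.05 in G2/M and none called, while 24.6% of all tested genes were positive. In the values rescaled without haemoglobin, 40 of 41 were positive without Control 4, with medians of 0.33 and 0.23, while 63.7% of all tested genes were positive with a median of 0.08. No gene of any kind was called in that fit, and 19 members had an unadjusted p under 0.05. Whether the S-phase slopes differed from the G2/M slopes was not tested. In the rescaled values the S-phase genes summed to 2218, 1976 and 2878 TPM in Onway, against 3306, 1750 and 1941 TPM in Control, and the G2/M genes to 2309, 2100 and 2784 TPM in Onway, against 3157, 1935 and 2210 TPM in Control. Onway 3, with the most haemoglobin, then came next to Control 4 in both sums.

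On early granulocyte content the direction was the opposite. In each group the library with the highest erythroid sum, Onway 3 or Control 4, had the lowest early granulocyte sum. The slopes on these contents are therefore not independent of each other. Slopes were negative in 36 of 41 members, with medians of -0.30 in S phase and -0.12 in G2/M, while 62.2% of all tested genes had a positive slope. No member was called in either direction, at a threshold that 0.958% of all genes passed with a positive and 0.176% with a negative slope, and 2 members had an unadjusted p under 0.05. Ccne1 again had the steepest slope, -0.81 ± 0.31 (SE, adjusted p by limma 0.27). Without Control 4, 23 of 41 slopes were positive, with medians of -0.04 in S phase and 0.05 in G2/M. In that fit 73.1% of all tested genes had a positive slope, with a median of 0.21. With early granulocyte content as a term in the group comparison, 36 of 41 log2 fold changes were negative and 0 were called. Of all 14192 tested genes 5820 were negative there, and 363 were called higher and 370 lower. The content itself averaged 3827 TPM in Onway and 6721 TPM in Control. Of its 10 genes 9 had a negative log2 fold change, 3 had an unadjusted p under 0.05 and 0 were called by limma. Content and group thus cannot be fully told apart in this fit. On haemoglobin content 32 of 41 slopes were positive, with medians of 0.16 in S phase and 0.04 in G2/M, while 30.2% of all tested genes had a positive slope.

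**Figure D5:**
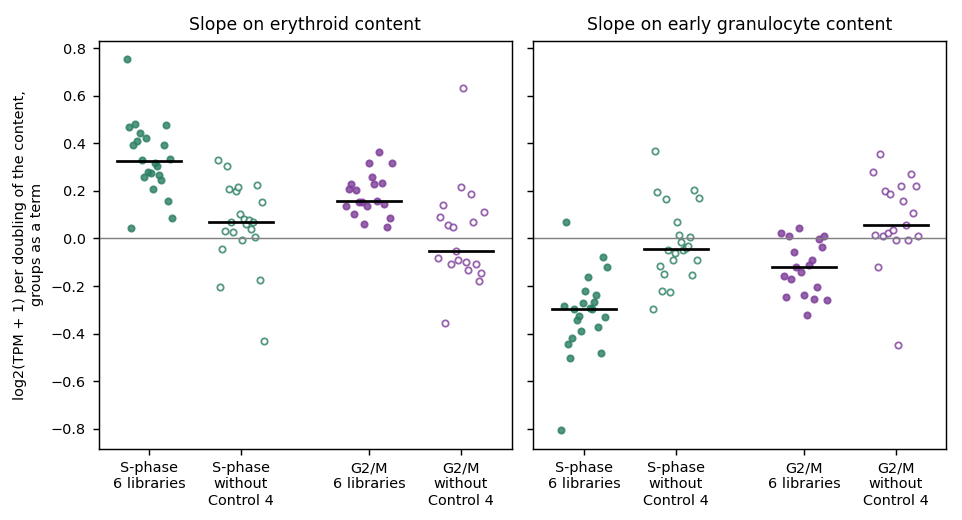
Slope of each gene (points; y axis, log2(TPM + 1) difference per doubling of the content, with the group as a term) on erythroid content (left) and early granulocyte content (right), for S-phase genes (green) and G2/M genes (purple), in all 6 libraries (filled) and without Control 4 (open), with medians as black lines. The erythroid medians are 0.32 and 0.16 with all libraries, and 0.07 and -0.05 without Control 4.

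Wider lists of replication and mitosis genes gave no call either. Of 50 further replication genes (origin recognition, polymerases, clamp loader, checkpoint) 0 were higher and 0 lower in Onway, with a median log2 fold change of -0.01, and none had an unadjusted p under 0.05. The smallest p belonged to Gmnn, geminin, the inhibitor of Cdt1, with 63.5, 71.8 and 65.6 TPM in Onway, against 98.9, 83.9 and 79.4 TPM in Control. Every Onway library was below every Control library, as in 2 of the 50 genes and 11.5% of all tested genes. The log2 fold change of Gmnn was -0.38 ± 0.16 (SE), with an adjusted p by limma of 0.38. Of 53 further mitotic genes 0 were called in either direction, and 1 had an unadjusted p under 0.05. This was Foxm1, the transcription factor of many mitotic genes, with 27.9, 28.0 and 22.3 TPM in Onway, against 21.4, 18.6 and 17.9 TPM in Control (log2 fold change 0.41 ± 0.17, SE, adjusted p by limma 0.34). Each Onway library of Foxm1 was above each Control library. This held for 4 of the 53 genes, where 6.95% of all tested genes showed it. For 4 others each Onway library was below each Control library, as in 11.5% of all tested genes. Pole2, Usp1 and E2f7 of the replication list, and Lmnb1, Gtse1 and Kif23 of the mitotic list, had adjusted p-values of 0.44 to 0.65 by limma.

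Among 8 tested G1 cyclins and kinases 0 were called and none had an unadjusted p under 0.05, and the 4 with the smallest p, Ccnh, Ccnd3, Cdk7 and Cdk4, had log2 fold changes between -0.35 and 0.25. Cyclin D3, the product of Ccnd3, was the most abundant of these at 453 ± 69.9 TPM in Onway and 376 ± 12.7 TPM in Control (SD, n = 3 each). Of 20 tested genes that slow or stop the cycle 1 was called. Btg1, an antiproliferative partner of mRNA deadenylases, had 96.1, 139.6 and 100.7 TPM in Onway, against 31.4, 51.0 and 51.4 TPM in Control. All Onway values exceeded all Control values, and Btg1 rose by a log2 fold change of 1.32 ± 0.25 (SE) with an adjusted p by limma of 0.032. That call was lost without Control 4, Control 6, Onway 1, Onway 2 or Onway 3, with adjusted p-values by limma of 0.0575 to 0.12, and without the filter on low values, with 0.074. Without both Control 4 and Onway 3 it was lost as well, with an adjusted p by limma of 0.071. Its relative Btg2 had 134, 116 and 73.2 TPM in Onway, against 69.5, 43.2 and 51.4 TPM in Control, with a log2 fold change of 0.95 ± 0.28 (SE) and an adjusted p by limma of 0.17. Trp53inp1, a p53 target, and Cdkn1c, an inhibitor of cyclin kinases, had log2 fold changes of 0.48 and -0.60, with adjusted p-values by limma of 0.38 and 0.44.

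The transcripts behind the sums were also compared. The share of a gene's TPM held by its leading transcript did not overlap between the groups in 6 of 41 members. These were Birc5, Ccne2, Cdt1, Mcm3, Tyms and Ube2c. Of the 12001 genes with at least 2 transcripts 14.2% showed this, a share close to that of the members. For Tyms the leading transcript, 618 bases long and annotated as a target of nonsense-mediated decay, held 40.8%, 42.1% and 38.1% of the TPM in Onway, against 28.6%, 30.7% and 33.4% in Control. Some transcripts are annotated as nonsense-mediated decay, non-stop decay, retained intron or processed transcript. Over the 6 libraries such transcripts made up 63.8% of Tyms TPM and 37.3% of Cdk1 TPM. For Cdk1 they came mainly from a retained-intron transcript of 475 bases. Without such transcripts, an alternative chosen after the data were seen, 0 of 41 members were called. Mki67 came mostly from assembled transcripts outside the Ensembl annotation, and its Ensembl transcript of 10061 bases had 13.2, 7.32 and 4.83 TPM in Onway, against 12.3, 1.67 and 6.87 TPM in Control.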

How the data were processed

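RNA-seq of bone marrow was analysed in 6 libraries (3 Onway, 3 Control). Per the labels' protocols, total RNA from a spin-column kit went into SMARTer mRNA libraries. The submitters' processing notes name GRCm38 and mm10. The aligner, quantifier and strand setting were not given in the sources used here. In 1 table the authors deposited TPM for 158850 transcripts, of which 16416 carry identifiers of newly assembled transcripts, beside group means of TPM and a transcript length. TPM keeps no read count, so depth is unknown and no counting interval is given. Onway columns carry another prefix and were matched by number. The deposited Onway mean, times 4, fell below the sum of these 3 columns for 0 transcripts, and below the sum of the Control columns for 28992. The value left beyond the 3 libraries entered no test.

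TPM was summed per gene identifier (56496 genes). The 14192 genes averaging 1 TPM or more were tested with limma 3.58.1 (R 4.3.3), with trend and robust moderation, on log2(TPM + 1), which understates the change of low genes. Tests were two-sided, and p-values were adjusted by the Benjamini-Hochberg method over these genes, and called under 0.05. The replicate numbers of the groups (1 to 3 and 4 to 6) do not match, and no samples were paired. The fit was tested on simulated data. Alternatives covered the pseudocount, filter, scaling, moderation, transcripts used, content covariates and left-out libraries.

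Members and lists were chosen with earlier results of these data known. Members with full values are the 4 with the smallest p in each direction in each phase and a fixed panel of 14. Each wider list is named by its 4 smallest p. Promoter windows are from RefSeq on GRCm38.p6, and transcript classes from GENCODE M21.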

Additional observations from a re-analysis of the deposited data

How the results depend on the processing

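Under every alternative run, 0 of 41 members were higher and 0 lower in Onway by limma. Changing the pseudocount, filter, scaling or moderation turned the sign of at most 3 members, and early granulocyte content as a covariate turned 20. That content was itself lower on average in Onway than in Control. Leaving out 1 library turned 3 to 15 signs, moving the S-phase median log2 fold change between -0.07 and 0.24 and the G2/M median between -0.09 and 0.10, and leaving out both Control 4 and Onway 3 turned 17, with a G2/M median of 0.17. No paired analysis was possible because the groups share no replicate numbers. With TPM the depth of the libraries is unknown, and with 3 libraries a group the 95% intervals of single members are wide (-0.45 to 0.46 for Pcna on the log2 scale).

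Over all genes, the 33 higher in Onway became 20 with a mean of at least 5 TPM, 72 with median-of-ratios scaling, 61 with the erythroid and 363 with the early granulocyte covariate, 97 without both libraries, and 16 (without Onway 2) to 87 (without Control 4) without 1 library. The 424 lower became 183 with a mean of at least 5 TPM, 207 without both libraries and 246 (without Onway 2) to 456 (without Control 5) without 1 library. The cause was not tested.

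Slopes also depended on the libraries and the scaling used. Leaving out 1 library, the median slope on erythroid content ran from 0.069 to 0.37 in S phase and from -0.054 to 0.25 in G2/M, on early granulocyte content from -0.67 to -0.043 and from -0.41 to 0.055, and on haemoglobin content from 0.033 to 0.46 and from -0.048 to 0.32. After rescaling without haemoglobin genes the erythroid G2/M median was 0.31 and the early granulocyte medians were -1.01 in S phase and -0.73 in G2/M, where the median of all genes was -0.36. After the same rescaling and without Control 4, the early granulocyte medians were -0.66 and -0.51. Without Control 6 or without Onway 1, 1 of 41 members passed with a positive erythroid slope, as did 238 of 14104 and 500 of 14277 genes. Btg2 was called without both libraries (adjusted p by limma 0.024), while Btg1 was not (adjusted p by limma 0.071).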
